A study of Mus musculus with 11 samples.

Results

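The mouse retina was examined for 43 genes of the cell division machinery, 20 that act in the run-up to and during S phase, when DNA is copied, and 23 that act in mitosis, when the copies are separated. The members were given as a list of gene symbols, put together with earlier results of these data known, and the rule itself sets no threshold on a measured value. Each was found by the Ensembl identifier of its row in the authors' merged table of read counts, and all 43 were present among 37991 rows. All 43 also passed the filter on low counts that left 17099 genes for testing.

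The retina of the right eye was taken from each of 11 mice, at postnatal day 24, for RNA sequencing, with 1 library per animal and 4 groups. The rd10 GSK group (n = 3) and the rd10 saline group (n = 3) were mice of the strain labelled B6.CXB1-Pde6brd10/Jrd10, which carries a mutant allele of Pde6b, the beta subunit of the rod phosphodiesterase. The WT GSK group (n = 3) and the WT saline group (n = 2) were wild-type C57Bl/6J mice. GSK is GSK2879552, an inhibitor of the histone demethylase LSD1, given by daily intraperitoneal injection at 4.2 mg/kg from day 9 to day 24, and the saline groups received the vehicle over the same days. In every animal the treatment was systemic, so no cell type of the retina was targeted, and the mutation is present in all cells.

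Cells commit to division when cyclin D and cyclin E kinases release E2F transcription factors from the retinoblastoma protein, and E2F factors then drive the genes that license origins, make nucleotides and copy DNA. Genes of mitosis follow later, through B-MYB and FOXM1 acting at promoter elements called the cell cycle genes homology region (CHR) and CCAAT boxes, and the same elements hold these genes silent in resting cells. Neurons of the retina, once formed, have left the cell cycle and do not divide again, whereas microglia, and under some conditions Müller glia, can re-enter it. In rd10 mice rods die in the weeks after birth.

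Libraries held between 19657030 and 28053367 counts. Levels are given in CPM, each gene's counts as a share of the library's total after TMM scaling, edgeR's default, which assumes that most genes keep their level. Changes are on the log2 scale, ± an approximate standard error. It is the size of the change divided by the square root of the F statistic of edgeR's quasi-likelihood test. It is not the fitted error of the coefficient and can be far off for genes with few counts. A group mean in CPM carries its SD. The verbs rose and fell are kept for an adjusted p under 0.05 in edgeR's quasi-likelihood test. Summed over 6 rod genes, the rd10 GSK retinas had 23681 to 45766 CPM and the rd10 saline retinas 7636 to 9333 CPM, against 54568 to 57072 CPM in WT GSK and 58420 to 59900 CPM in WT saline retinas. Of 15 lens genes, Lim2 was at 0 in all libraries. The lens sum was 7056 CPM in rd10 GSK replicate 2 and 678 CPM in WT saline replicate 2, against 4.64 to 16.7 CPM in the other 9 libraries, so counts of members are also given without those libraries. Skeletal muscle genes summed to 26.1 CPM in rd10 GSK replicate 3, against 1.99 to 4.48 CPM in the other 10 libraries, and that library had the highest rod sum of its group. Xist was at 0.338 CPM or less in rd10 GSK replicates 1 and 3, in rd10 saline replicate 2 and in WT GSK replicate 2, and at 780.5 CPM or more in the other 7. Its balance differed between groups, and its part in the results was not tested.

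The promoters show how the S phase and mitosis members differ in sequence, whatever their expression. RefSeq promoters of build GRCm38.p6, each covering 250 bases before to 50 after a gene's start, were at hand for 34 of the 43 members, 37 promoters in all. They were searched on both strands for 3 kinds of motif, and matches may overlap. E2F-type letters were any of TTCCCGC, of its variant TTCGCGC and of a further variant TTGGCGC. CHR letters were TTTGAA or the variant TTCGAA, and the last motif was CCAAT. E2F-type letters were in 10 of 18 S phase promoters and 3 of 19 mitosis promoters, against 8.07% of 32851 promoters of all genes. CHR letters ran the other way, in 15 of 19 mitosis promoters and 3 of 18 S phase promoters, against 19.2% of all. CCAAT was in 17 of 19 mitosis promoters and 12 of 18 S phase promoters, against 37.4% of all. CHR and CCAAT stood together in 15 of 19 mitosis promoters and 3 of 18 S phase promoters, against 7.52% of all. These are matches of letters, not sites shown to be bound.

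The 180 bases before the start of 7 members are printed because they show these arrangements, with every matched motif in capitals. Mki67, Top2a, Cdk1 and Cdc20 are mitosis members with both CHR and CCAAT letters. Mcm5 and Mcm6 are S phase members with overlapping E2F-type letters and no CHR letters. Mcm2 is an S phase member that has the CHR letters instead of the E2F-type ones.
Mki67 (chr7:135716380-135716559, minus strand): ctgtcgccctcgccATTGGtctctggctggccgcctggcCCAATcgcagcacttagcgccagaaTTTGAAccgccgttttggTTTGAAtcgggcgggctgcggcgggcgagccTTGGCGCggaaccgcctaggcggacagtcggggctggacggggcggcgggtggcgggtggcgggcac
Top2a (chr11:99024190-99024369, minus strand): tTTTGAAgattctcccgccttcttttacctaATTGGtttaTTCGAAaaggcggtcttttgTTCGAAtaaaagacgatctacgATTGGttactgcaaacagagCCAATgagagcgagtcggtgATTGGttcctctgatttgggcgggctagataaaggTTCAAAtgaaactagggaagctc
Cdk1 (chr10:69352913-69353092, minus strand): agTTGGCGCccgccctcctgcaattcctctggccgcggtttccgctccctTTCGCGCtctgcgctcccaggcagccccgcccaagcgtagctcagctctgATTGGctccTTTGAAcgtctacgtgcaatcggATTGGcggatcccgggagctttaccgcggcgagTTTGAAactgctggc
Cdc20 (chr4:118437344-118437523, minus strand): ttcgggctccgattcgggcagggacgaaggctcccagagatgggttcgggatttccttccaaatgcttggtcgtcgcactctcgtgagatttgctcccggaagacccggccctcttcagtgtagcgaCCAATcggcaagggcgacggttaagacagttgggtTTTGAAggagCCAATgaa
Mcm5 (chr8:75109329-75109508, plus strand): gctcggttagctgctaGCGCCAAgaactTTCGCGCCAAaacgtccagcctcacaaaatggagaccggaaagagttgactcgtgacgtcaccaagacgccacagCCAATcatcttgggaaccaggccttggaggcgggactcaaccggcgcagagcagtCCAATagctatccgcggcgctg
Mcm6 (chr1:128359706-128359885, minus strand): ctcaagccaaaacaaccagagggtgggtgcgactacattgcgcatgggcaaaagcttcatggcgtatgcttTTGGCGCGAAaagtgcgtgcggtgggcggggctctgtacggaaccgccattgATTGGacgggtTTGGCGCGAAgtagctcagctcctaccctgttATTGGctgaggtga
Mcm2 (chr6:88898781-88898960, minus strand): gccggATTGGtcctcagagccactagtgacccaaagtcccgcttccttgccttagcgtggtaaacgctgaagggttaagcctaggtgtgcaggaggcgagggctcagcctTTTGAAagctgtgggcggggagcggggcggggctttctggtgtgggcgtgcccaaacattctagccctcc

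In the rd10 saline retinas most of the module stood above WT saline. Of the 43 members 30 rose and 0 fell, where 21.5% of all genes tested rose and 19.0% fell. Scaling to 23 inner retina genes in place of TMM gave 27 and 0, where 15.7% of all genes rose and 22.4% fell. It took the share of higher calls among all calls to 41.2%, against 53.0% under TMM. The rise took in 13 of 20 S phase members, with a median log2 change of 0.87, and 17 of 23 mitosis members, with a median of 1.83, where the median of all genes tested was 0.02. These medians include members that passed the filter only through rd10 libraries. Over the 16 S phase and 14 mitosis members that passed on WT libraries alone they were 0.57 and 1.19. In a bulk retina, more cells of a dividing type cannot be told apart from more RNA per cell. All rd10 saline libraries lay above both WT saline libraries for 15 S phase and 19 mitosis members, where this held for 32.5% of all genes, and Cdc45 was the 1 member with all of them below, where this held for 29.7%.

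**Figure D1:**
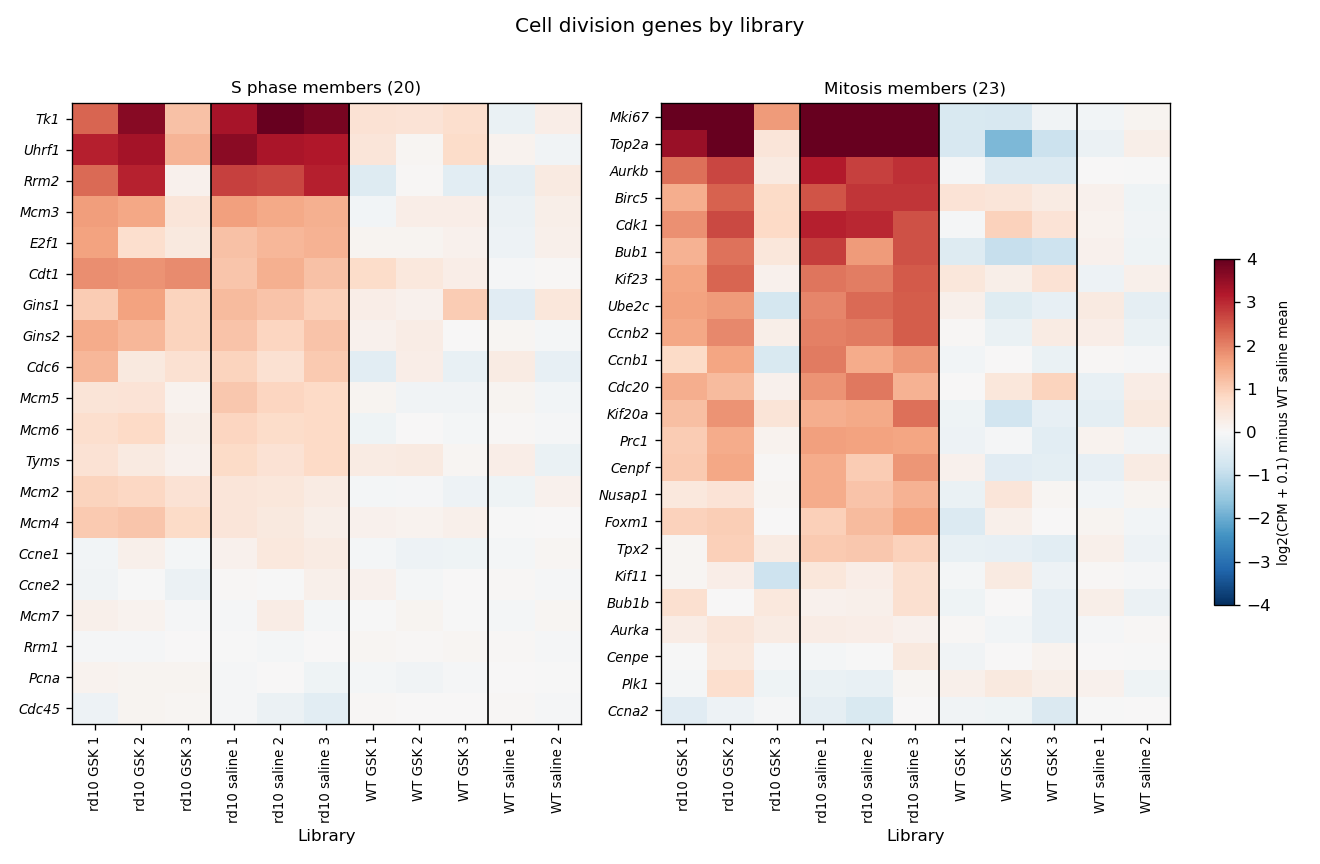
Each row is a member and each column a library. Colour is log2(CPM + 0.1) minus the mean of the WT saline libraries, saturating at 4 in either direction. The rd10 saline columns are dark for most mitosis rows, rd10 GSK replicate 3 is much paler than rd10 GSK replicates 1 and 2, and the lowest rows, among them Rrm1, Pcna, Plk1 and Ccna2, are pale in every column.

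The highest fold changes belonged to genes close to silence in WT saline retinas. Those given here, Mki67, Top2a, Tk1 and Aurkb, passed the filter only through rd10 libraries and so had to be higher there. Other members that passed only in this way are named below, where the filter is examined. Mki67, the proliferation antigen that coats chromosomes in dividing cells, was at 9.78, 7.11 and 11.8 CPM in rd10 saline, against 0.0957 and 0.132 CPM in WT saline. Every rd10 saline library was above every WT one, and the difference was 6.32 ± 1.05 (adjusted p = 0.00153). Top2a, the topoisomerase that untangles sister chromatids, had 7.68, 6.69 and 9.42 CPM in rd10 saline, against 0.191 and 0.307 CPM in WT saline, again without overlap, and rose by 4.95 ± 1.06 (adjusted p = 0.00599). Tk1, thymidine kinase of the salvage route to DNA precursors, was at 1.09, 1.89 and 1.58 CPM in rd10 saline, against 0 and 0.0439 CPM in WT saline, and rose by 5.76 ± 1.05 (adjusted p = 0.00127). Its fold rests on 105 counts over the rd10 saline libraries against 1 count over the WT saline libraries, of which replicate 1 had 0, which allows up to 3. The ratio of those counts per effective library was 66.2, with an exact interval from 11.6 to 2641 that covers counting error only. Aurkb, the mitotic kinase of the chromosomal passenger complex, was at 1.22, 0.877 and 1.01 CPM in rd10 saline, against 0.0479 and 0.0439 CPM in WT saline, and rose by 4.35 ± 0.90 (adjusted p = 0.00257). It had 72 counts in rd10 saline against 2 counts in WT saline, a ratio of 22.7 with an interval from 6.06 to 191.

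The kinase that starts mitosis and its cyclins rose together, apart from 1 cyclin. Cdk1, that kinase, was at 2.93, 2.77 and 1.95 CPM in rd10 saline, against 0.287 and 0.22 CPM in WT saline, and rose by 3.31 ± 0.58 (adjusted p = 0.000925). Its partners Ccnb2, at 1.88, 1.94 and 2.52 CPM in rd10 saline, against 0.479 and 0.307 CPM in WT saline, and Ccnb1, at 1.09, 0.692 and 0.852 CPM in rd10 saline, against 0.191 and 0.176 CPM in WT saline, rose by 2.42 ± 0.49 (adjusted p = 0.00229) and 2.23 ± 0.64 (adjusted p = 0.0152). Ccna2, the A cyclin that serves both S phase and entry into mitosis, had 9.95, 8.45 and 13.1 CPM in rd10 saline, against 12.6 and 13.1 CPM in WT saline. Its groups overlapped and it was not called, at -0.29 ± 0.19 (adjusted p = 0.246). Exons of Ccna2 overlap those of Exosc9 on the opposite strand, and with the strand setting of the counting not given, its counts may hold reads of that gene.

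Of the other mitosis members, Birc5, Kif23, Prc1 and Kif20a, which act at the spindle midzone or in cell cleavage, rose. Birc5, the survivin subunit of the passenger complex, was at 1.4, 1.8 and 1.79 CPM in rd10 saline, against 0.191 and 0.132 CPM in WT saline, without overlap, and rose by 3.33 ± 0.53 (adjusted p = 0.000511). Kif23, a kinesin of the cleavage furrow, had 1.14, 1.06 and 1.42 CPM in rd10 saline, against 0.144 and 0.22 CPM in WT saline, and rose by 2.69 ± 0.63 (adjusted p = 0.00539). For both, every rd10 saline library was above the WT saline ones. Prc1, which bundles midzone microtubules, was at 2.97, 2.91 and 2.84 CPM in rd10 saline, against 1.01 and 0.791 CPM in WT saline, and rose by 1.69 ± 0.35 (adjusted p = 0.00278). Kif20a, a kinesin of the same place, had 1.96, 2.03 and 3.33 CPM in rd10 saline, against 0.479 and 0.878 CPM in WT saline, and rose by 1.83 ± 0.44 (adjusted p = 0.00587). Exit from mitosis was represented by Cdc20, an activator of the anaphase-promoting complex, at 2.18, 2.72 and 1.62 CPM in rd10 saline, against 0.431 and 0.703 CPM in WT saline. Cdc20 rose by 1.92 ± 0.45 (adjusted p = 0.00533). Ube2c, the ubiquitin-conjugating enzyme of that complex, was at 1.05, 1.34 and 1.5 CPM in rd10 saline, against 0.287 and 0.132 CPM in WT saline, and rose by 2.62 ± 0.70 (adjusted p = 0.011).

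Spindle and checkpoint members split. Bub1, a kinetochore checkpoint kinase, was at 1.66, 0.738 and 1.42 CPM in rd10 saline, against 0.191 and 0.132 CPM in WT saline, and rose by 2.95 ± 0.63 (adjusted p = 0.00314). Its relative Bub1b, the mitosis member with the highest level per kb of exon, was at 22.4, 22.5 and 31.05 CPM in rd10 saline, against 23.5 and 16.6 CPM in WT saline, and was not called, at 0.34 ± 0.22 (adjusted p = 0.264). The libraries of Bub1b overlapped between the groups. Nusap1, a spindle microtubule binder, was at 2.97, 2.31 and 2.76 CPM in rd10 saline, against 0.909 and 1.1 CPM in WT saline, and rose by 1.41 ± 0.28 (adjusted p = 0.00189). Tpx2, which activates Aurora A on the spindle, had 4.1, 4.15 and 3.73 CPM in rd10 saline, against 2.2 and 1.67 CPM in WT saline, and rose by 1.05 ± 0.25 (adjusted p = 0.00614). Aurka, the Aurora A kinase itself, was at 2.27, 2.26 and 2.11 CPM in rd10 saline, against 1.77 and 1.93 CPM in WT saline. It was higher in every rd10 saline library and still not called, at 0.26 ± 0.19 (adjusted p = 0.307). Cenpf, a kinetochore protein, was at 2.27, 1.62 and 2.8 CPM in rd10 saline, against 0.574 and 0.966 CPM in WT saline, and rose by 1.52 ± 0.45 (adjusted p = 0.0182).

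A last set of spindle genes was not called. Kif11, the kinesin that pushes spindle poles apart, was at 3.89, 3.42 and 4.46 CPM in rd10 saline, against 2.87 and 2.72 CPM in WT saline, which gave 0.49 ± 0.29 (adjusted p = 0.209). Cenpe, a kinesin of the kinetochore, was at 5.37, 5.63 and 7.47 CPM in rd10 saline, against 5.79 and 5.62 CPM in WT saline, with overlapping groups and a change of 0.11 ± 0.19 (adjusted p = 0.669). Plk1, a kinase with many mitotic substrates that also acts at the midzone, was at 2.27, 2.22 and 2.88 CPM in rd10 saline, against 3.11 and 2.42 CPM in WT saline, also overlapping, with a change of -0.17 ± 0.26 (adjusted p = 0.653). Per kb of exon these genes, like Bub1b and Ccna2, had WT saline levels well above those of Mki67 or Top2a. Foxm1, the transcription factor that drives many mitosis genes, was at 2.49, 3.09 and 3.86 CPM in rd10 saline, against 1.34 and 1.14 CPM in WT saline, with no overlap, and rose by 1.34 ± 0.34 (adjusted p = 0.00884).

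The S phase members that rose belong to several steps. Uhrf1, which brings DNA methyltransferase to newly copied DNA, was at 3.67, 2.86 and 2.72 CPM in rd10 saline, against 0.239 and 0.176 CPM in WT saline, and rose by 3.87 ± 0.62 (adjusted p = 0.000618). Among enzymes that make nucleotides, Rrm2, the cell cycle regulated subunit of ribonucleotide reductase, was at 2.01, 1.89 and 2.6 CPM in rd10 saline, against 0.144 and 0.307 CPM in WT saline, and rose by 3.22 ± 0.80 (adjusted p = 0.00906). Rrm1, the constant subunit, was at 40.95, 39.3 and 41.2 CPM in rd10 saline, against 42.8 and 39.4 CPM in WT saline, with overlapping groups and a change of -0.02 ± 0.06 (adjusted p = 0.792). Tyms, thymidylate synthase, was at 4.98, 4.29 and 5.03 CPM in rd10 saline, against 3.45 and 2.37 CPM in WT saline. It rose by 0.72 ± 0.20 (adjusted p = 0.0132). E2f1, the transcription factor that drives S phase genes, had 4.85, 5.49 and 5.72 CPM in rd10 saline, against 1.82 and 2.46 CPM in WT saline, with every rd10 saline library above WT saline. E2f1 rose by 1.32 ± 0.32 (adjusted p = 0.00667).

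The replicative helicase is a ring of 6 MCM subunits, and they differed among themselves. Mcm3 was at 7.29, 6.74 and 6.33 CPM in rd10 saline, against 1.91 and 2.72 CPM in WT saline, and rose by 1.54 ± 0.33 (adjusted p = 0.00318). Mcm5 was at 10.1, 8.68 and 8.4 CPM in rd10 saline, against 5.17 and 4.39 CPM in WT saline, and rose by 0.92 ± 0.16 (adjusted p = 0.000834). Mcm6 had 13.3, 12.3 and 12.9 CPM in rd10 saline, against 7.61 and 6.98 CPM in WT saline, and rose by 0.81 ± 0.15 (adjusted p = 0.00126). No library overlapped between the groups for these 3 subunits. Mcm4 was at 20.7, 19.3 and 17.5 CPM in rd10 saline, against 14.8 and 14.8 CPM in WT saline. It rose by the smaller amount of 0.37 ± 0.11 (adjusted p = 0.0159), and Mcm2, at 14.5, 14.3 and 13.1 CPM in rd10 saline, against 9.28 and 11.6 CPM in WT saline, by 0.42 ± 0.13 (adjusted p = 0.0191). The call of Mcm4 was lost in 5 of 19 alternatives, inner retina scaling and the set without lens-bearing libraries among them, and that of Mcm2 in 3. Mcm7 had 14.5, 18.6 and 14.1 CPM in rd10 saline, against 14.2 and 15.9 CPM in WT saline, which overlapped and was not called, at 0.06 ± 0.13 (adjusted p = 0.731). Exons of Mcm7 overlap Ap4m1 and Cops6 on the opposite strand.

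Helicase loading and activation also split. Cdt1, the loading factor of the helicase, was at 4.58, 5.63 and 4.79 CPM in rd10 saline, against 2.01 and 2.11 CPM in WT saline, and rose by 1.28 ± 0.17 (adjusted p = 0.000177). Cdc6, the other loading factor, was at 0.742, 0.6 and 0.852 CPM in rd10 saline, against 0.479 and 0.264 CPM in WT saline, above WT saline in each library but with a change of 0.99 ± 0.45 (adjusted p = 0.101) that was not called. Of the GINS subunits that activate the helicase, Gins2 was at 3.32, 2.68 and 3.33 CPM in rd10 saline, against 1.53 and 1.36 CPM in WT saline, and rose by 1.10 ± 0.23 (adjusted p = 0.00255). Gins1 was at 1.48, 1.34 and 1.18 CPM in rd10 saline, against 0.383 and 0.791 CPM in WT saline, without overlap, and rose by 1.16 ± 0.40 (adjusted p = 0.037). The call of Gins1 was lost in 7 of 19 alternatives, DESeq2 among them. Their partner Cdc45 was at 3.97, 3.51 and 3.04 CPM in rd10 saline, against 4.26 and 4.04 CPM in WT saline, and had a change of -0.24 ± 0.16 (adjusted p = 0.258), not called. Exons of Cdc45 overlap Ufd1 on the opposite strand.

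Pcna, the sliding clamp of DNA polymerase, had the highest level per kb of exon of all members, at 49.5, 52.2 and 45.5 CPM in rd10 saline, against 52.1 and 50.4 CPM in WT saline. It was not called, at -0.06 ± 0.07 (adjusted p = 0.475), and it has named pseudogenes, as do Tyms, Ccnb1 and Ccnb2, with which reads may be shared. The cyclins E, which open S phase, were not called either. Ccne1 was at 5.68, 6.69 and 6.29 CPM in rd10 saline, against 4.74 and 5.23 CPM in WT saline, with a change of 0.32 ± 0.14 (adjusted p = 0.0973), and Ccne2 at 7.42, 7.11 and 8.36 CPM in rd10 saline, against 7.47 and 6.94 CPM in WT saline, with a change of 0.08 ± 0.13 (adjusted p = 0.634). All libraries of Ccne1 were higher in rd10 saline, while those of Ccne2 overlapped.

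The 13 members that were not called had a median WT saline level of 5.71 CPM, and 5 of them, Ccne2, Cdc45, Mcm7, Ccna2 and Plk1, overlap exons of a gene on the opposite strand. The 30 that rose had a median of 0.633 CPM there, and 7 of them, Tk1, Gins2, Cdc20, Kif20a, Nusap1, Prc1 and Ube2c, overlap such exons. Whether reads of other genes or of cells that do not divide make up that level was not tested. Per kb of exon, Pcna ranked highest in WT saline retinas, at 21.4 CPM per kb, followed by Bub1b at 4.69, Mcm4 at 4.14, Rrm1 at 3.73 and Mcm7 at 3.41. At the other end stood Bub1 at 0.0371, Top2a at 0.0277, Kif23 at 0.0230, Aurkb at 0.0156, Mki67 at 0.0113 and Tk1 at 0.00422 CPM per kb. In rd10 saline retinas the first 5 of that order were the same genes, but Mki67 stood at 0.951 and Top2a at 0.88 CPM per kb, ranks 19 and 20 of 43.

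Because rd10 libraries carry many members over the filter, the WT libraries alone were also asked. On them 30 of the 43 members passed, and of these 10 of 16 S phase and 8 of 14 mitosis members rose. The other 13 entered only through rd10 libraries and so had to be higher there. They were Cdc6, Rrm2, Tk1 and Uhrf1 of S phase, and Mki67, Top2a, Cdk1, Ccnb1, Birc5, Bub1, Aurkb, Kif23 and Ube2c of mitosis. Their median log2 changes were 3.54 for 4 S phase and 3.31 for 9 mitosis members. Without WT saline replicate 1 the median log2 change of all members was 1.24, against 1.28 in the fit of all libraries. Without both lens-bearing libraries the median was 0.67 for S phase and 2.12 for mitosis. Each of these settings leaves 1 WT saline library, and calls became fewer there among the members and over all genes. Of the 30 calls 15 held in every alternative that gave a value, 7 were lost in 1, 4 in 2 and 4 in 3 or more: Gins1, Mcm4, Mcm2 and Ccnb1.

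**Figure D2:**
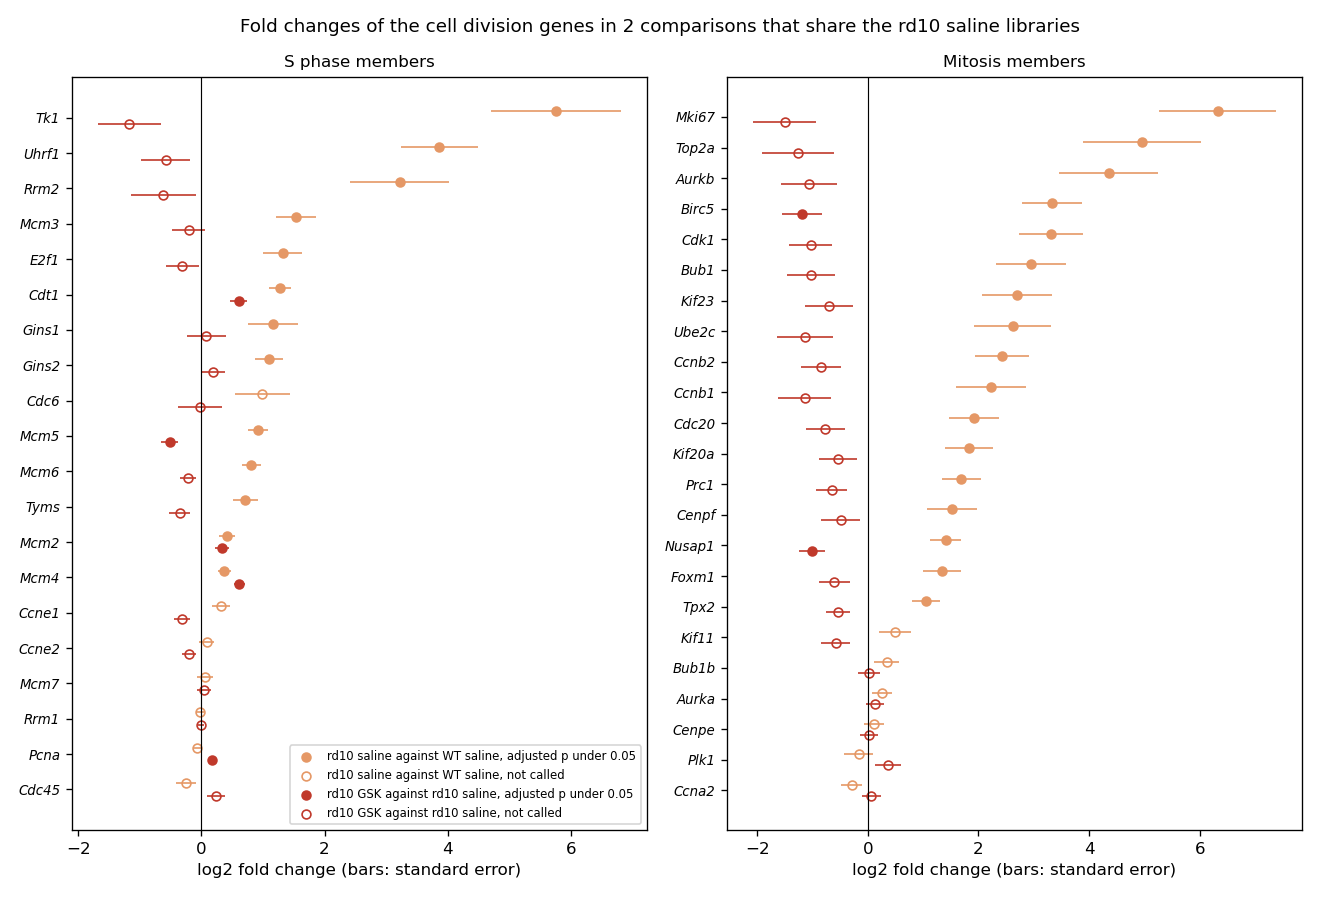
Points are log2 fold changes and bars their approximate standard errors from the F statistic, for rd10 saline against WT saline and for rd10 GSK against rd10 saline. Filled points have an adjusted p under 0.05. The comparisons share the rd10 saline libraries. Mki67 reached 6.32 in the first and -1.51 in the second, while Mcm4 and Cdt1 were to the right of 0 in both.

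Under GSK few members of the rd10 retina were called. Of 20 S phase members 4 rose and 1 fell, and of 23 mitosis members 0 rose and 2 fell, where 17.6% of all genes rose, 15.2% fell and 32.9% were called in either direction. These counts were close to or below that background, and the difference between the lists was not tested. The median log2 change was -0.11 for S phase and -0.71 for mitosis, against 0.01 for all genes tested. Over the 16 S phase and 14 mitosis members that passed the filter on WT libraries alone, these medians were 0.02 and -0.54. Of those, 4 S phase members rose and 1 fell, and 0 mitosis members rose and 1 fell. Birc5, the other mitosis member that fell, passed only through rd10 libraries. Scaling to 23 inner retina genes in place of TMM turned the S phase median of all 20 to 0.23 and left the mitosis median of all 23 at -0.37. Without rd10 GSK replicate 3 the S phase median was 0.0331 and the mitosis median -0.446. The inner retina scaling moved the median of all genes tested to 0.34 and the share of higher calls among all calls to 95.7%, against 53.6% under TMM. Under it 10 members rose and 1 fell, where 52.1% of all genes rose and 2.35% fell. A negative change was fitted for 18 of 23 mitosis members and 12 of 20 S phase members, and all 3 rd10 GSK libraries lay below all rd10 saline libraries for 9 mitosis and 2 S phase members, where this held for 20.2% of all genes.

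The 4 members that rose serve helicase loading and the copying of DNA. Mcm4 was at 30.7, 32.2 and 25.5 CPM in rd10 GSK, against 20.7, 19.3 and 17.5 CPM in rd10 saline, without overlap, and rose by 0.62 ± 0.09 (adjusted p = 0.000512). Cdt1 had 7.67, 7.34 and 7.82 CPM in rd10 GSK, against 4.58, 5.63 and 4.79 CPM in rd10 saline, also without overlap, and rose by 0.61 ± 0.14 (adjusted p = 0.00632). Mcm2 was at 19.1, 18.3 and 15.4 CPM in rd10 GSK, against 14.5, 14.3 and 13.1 CPM in rd10 saline, and rose by 0.33 ± 0.11 (adjusted p = 0.034). Pcna had 56.5, 54.9 and 55.1 CPM in rd10 GSK, against 49.5, 52.2 and 45.5 CPM in rd10 saline, and rose by the small amount of 0.18 ± 0.06 (adjusted p = 0.0342). The libraries of both genes were separate between the groups. The calls of Mcm4 and Cdt1 held in all 19 alternatives, whereas that of Mcm2 was lost in 7 and that of Pcna in 11.

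Of those that fell, Mcm5 moved against Mcm2 and Mcm4 of the same ring. It was at 6.78, 6.97 and 5.3 CPM in rd10 GSK, against 10.1, 8.68 and 8.4 CPM in rd10 saline, without overlap, and fell by 0.51 ± 0.14 on the log2 scale (adjusted p = 0.0137). Nusap1 had 1.39, 1.52 and 1.07 CPM in rd10 GSK, against 2.97, 2.31 and 2.76 CPM in rd10 saline, and its log2 change was -1.01 ± 0.23 (adjusted p = 0.00608). Birc5 was at 0.617, 1.25 and 0.342 CPM in rd10 GSK, against 1.4, 1.8 and 1.79 CPM in rd10 saline, and its log2 change was -1.19 ± 0.36 (adjusted p = 0.0242). For both, each rd10 GSK library was below the rd10 saline ones. The call of Nusap1 held in all 19 alternatives, while Mcm5 lost it in 2 and Birc5 in 7.

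For the most strongly raised mitosis genes the rd10 GSK libraries were far apart. Mki67 was at 3.47, 6.09 and 0.598 CPM in rd10 GSK, against 9.78, 7.11 and 11.8 CPM in rd10 saline. All 3 were below every rd10 saline library, but the change of -1.51 ± 0.57 (adjusted p = 0.0726) was not called. Top2a had 3.7, 5.86 and 0.384 CPM in rd10 GSK, against 7.68, 6.69 and 9.42 CPM in rd10 saline, and a change of -1.26 ± 0.65 (adjusted p = 0.172), not called. Cdk1 was at 1.16, 2.08 and 0.513 CPM in rd10 GSK, against 2.93, 2.77 and 1.95 CPM in rd10 saline, with a change of -1.03 ± 0.39 (adjusted p = 0.064). Replicate 3 was the lowest rd10 GSK library for each of these genes and replicate 2 the highest, and for Cdk1 the groups overlapped.

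Other mitosis members were also low in replicate 3. Ccnb1 was at 0.385, 0.738 and 0.0854 CPM in rd10 GSK, against 0.879 ± 0.201 CPM in rd10 saline, and Ccnb2 at 1.31, 1.75 and 0.47 CPM in rd10 GSK, against 2.11 ± 0.352 CPM in rd10 saline. Neither was called, at -1.14 ± 0.48 (adjusted p = 0.0886) and -0.85 ± 0.36 (adjusted p = 0.0946). Aurkb was at 0.578, 0.83 and 0.0854 CPM in rd10 GSK, against 1.04 ± 0.174 CPM in rd10 saline, Kif23 at 0.732, 1.29 and 0.214 CPM in rd10 GSK, against 1.21 ± 0.19 CPM in rd10 saline, and Ube2c at 0.809, 0.877 and 0.0854 CPM in rd10 GSK, against 1.3 ± 0.23 CPM in rd10 saline. In replicate 3 all of these but Aurkb lay within or below the WT saline libraries, and none was called. Cdc20, at 1.7, 1.48 and 0.641 CPM in rd10 GSK, against 2.18 ± 0.55 CPM in rd10 saline, and Foxm1, at 2.43, 2.54 and 1.24 CPM in rd10 GSK, against 3.15 ± 0.685 CPM in rd10 saline, were not called either, with changes of -0.77 ± 0.35 (adjusted p = 0.115) and -0.61 ± 0.28 (adjusted p = 0.124). Tpx2 was at 2.04, 3.78 and 2.44 CPM in rd10 GSK, against 4 ± 0.23 CPM in rd10 saline, where replicate 1 was the lowest, and its change was -0.54 ± 0.21 (adjusted p = 0.0708).

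**Figure D3:**
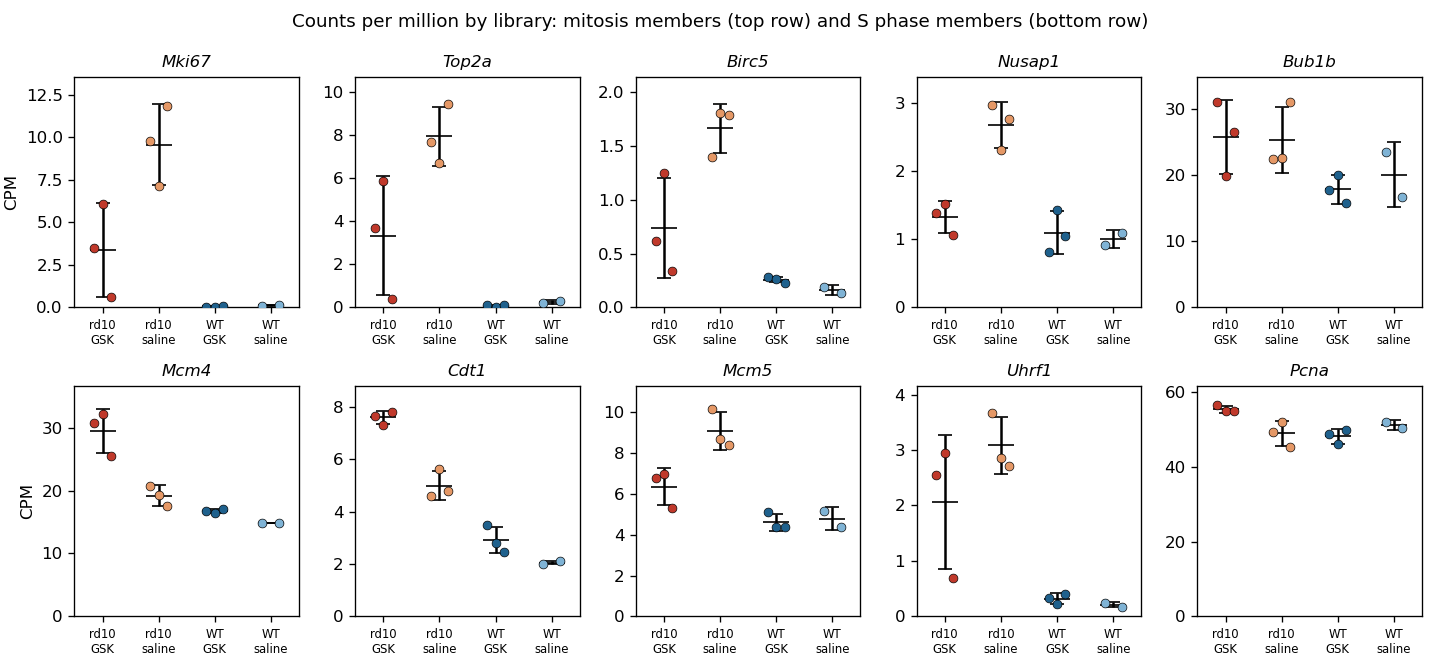
Points are libraries, in CPM, long bars the group mean and short bars 1 SD on each side, with the 4 groups from rd10 GSK on the left to WT saline on the right. Mki67, Top2a and Birc5 are spread in rd10 GSK, while Mcm4 and Cdt1 are higher in all 3 rd10 GSK libraries than in any other library.

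Mitosis members that had not been called in the untreated mutant were not called under GSK either. Bub1b was at 30.99, 19.9 and 26.5 CPM in rd10 GSK, against 25.3 ± 4.97 CPM in rd10 saline. Ccna2 had 9.36, 11.2 and 12.4 CPM in rd10 GSK, against 10.5 ± 2.36 CPM in rd10 saline, and Cenpe 5.59, 7.66 and 5.51 CPM in rd10 GSK, against 6.16 ± 1.14 CPM in rd10 saline. Their changes were 0.03, 0.06 and 0.02. Plk1 was at 2.62, 4.48 and 2.44 CPM in rd10 GSK, against 2.46 ± 0.37 CPM in rd10 saline, Aurka at 2.27, 2.63 and 2.35 CPM in rd10 GSK, against 2.21 ± 0.09 CPM in rd10 saline and Kif11 at 2.93, 3.41 and 1.54 CPM in rd10 GSK, against 3.92 ± 0.525 CPM in rd10 saline. Of these 6 Kif11 had the only negative change, at -0.58 ± 0.26 (adjusted p = 0.106), not called.

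Among S phase members without a call, Tyms and Rrm2 of nucleotide synthesis had negative changes. Tyms was at 4.28, 3.69 and 3.25 CPM in rd10 GSK, against 4.77 ± 0.412 CPM in rd10 saline, and its change was -0.35 ± 0.17 (adjusted p = 0.139). Rrm2 had 1.43, 2.58 and 0.256 CPM in rd10 GSK, against 2.17 ± 0.378 CPM in rd10 saline, and Uhrf1 2.54, 2.95 and 0.684 CPM in rd10 GSK, against 3.08 ± 0.512 CPM in rd10 saline. In these genes replicate 3 was the low one, and their changes were -0.62 ± 0.53 (adjusted p = 0.406) and -0.58 ± 0.39 (adjusted p = 0.283). Rrm1 was not called, at 40.1, 39.4 and 41.4 CPM in rd10 GSK, against 40.5 ± 1.04 CPM in rd10 saline, and so was Mcm7, at 17.4, 16.7 and 14.7 CPM in rd10 GSK, against 15.8 ± 2.47 CPM in rd10 saline. Mcm6 had 11.7, 12.7 and 8.63 CPM in rd10 GSK, against 12.8 ± 0.522 CPM in rd10 saline, and a change of -0.22 ± 0.13 (adjusted p = 0.211). E2f1 was at 6.67, 3.41 and 2.82 CPM in rd10 GSK, against 5.35 ± 0.454 CPM in rd10 saline, where replicate 1 was above all rd10 saline libraries and the others below, with a change of -0.31 ± 0.26 (adjusted p = 0.4). Ccne1, at 4.59, 5.72 and 4.7 CPM in rd10 GSK, against 6.22 ± 0.512 CPM in rd10 saline, and Ccne2, at 6.59, 7.2 and 6.07 CPM in rd10 GSK, against 7.63 ± 0.652 CPM in rd10 saline, had changes of -0.32 ± 0.13 (adjusted p = 0.0761) and -0.21 ± 0.11 (adjusted p = 0.188). Cdc45 was at 3.58, 4.48 and 4.4 CPM in rd10 GSK, against 3.51 ± 0.465 CPM in rd10 saline, Cdc6 at 1.04, 0.507 and 0.598 CPM in rd10 GSK, against 0.731 ± 0.126 CPM in rd10 saline and Gins1 at 1.23, 1.89 and 1.11 CPM in rd10 GSK, against 1.33 ± 0.154 CPM in rd10 saline. None of the 3 was called.

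These counts depended on single libraries. Without rd10 GSK replicate 2, the library with the lens signal, 13 members fell, 10 of them mitosis members, and 2 rose, where 11.0% of all genes fell and 14.7% rose. Without both lens-bearing libraries 10 fell, 8 of them mitosis members, and 2 rose, where 9.07% of all genes fell and 12.7% rose. In these settings the share of mitosis members that fell was thus above that of all genes, unlike in the fit of all libraries. Without rd10 GSK replicate 3 the counts were 3 that rose and 3 that fell, where 16% of all genes rose and 13.8% fell.

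Averaged over each list, the S phase and mitosis levels separated the libraries. On log2(CPM + 0.1) relative to WT saline, the rd10 GSK retinas had S phase levels of 1.01, 1.07 and 0.48 and mitosis levels of 1.15, 1.59 and 0.20 in replicates 1, 2 and 3. The rd10 saline retinas had S phase levels of 1.03, 1.01 and 1.01 and mitosis levels of 1.73, 1.61 and 1.88. In those the mitosis level exceeded the S phase level in all 3 libraries, and the S phase level was nearly the same across them. S phase minus mitosis was -0.13 ± 0.40 in rd10 GSK and -0.73 ± 0.14 in rd10 saline (SD, n = 3 each). It was -0.14, -0.52 and 0.28 in the rd10 GSK libraries, all above the -0.60 to -0.88 of the rd10 saline libraries. With pseudocounts of 0.5 and 1 CPM the rd10 saline difference was -0.458 and -0.312, so its size depends on how low values are treated. It also depends on members that passed the filter only through rd10 libraries, 4 of S phase and 9 of mitosis, which had to be high there. Over the 16 S phase and 14 mitosis members that passed on WT libraries alone, S phase minus mitosis was 0.12, -0.18 and 0.31 in the rd10 GSK libraries and -0.24, -0.22 and -0.53 in the rd10 saline libraries, with means of 0.0806 and -0.328. On these members the rd10 GSK libraries were still above the rd10 saline ones, by a narrow margin in replicate 2.

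**Figure D4:**
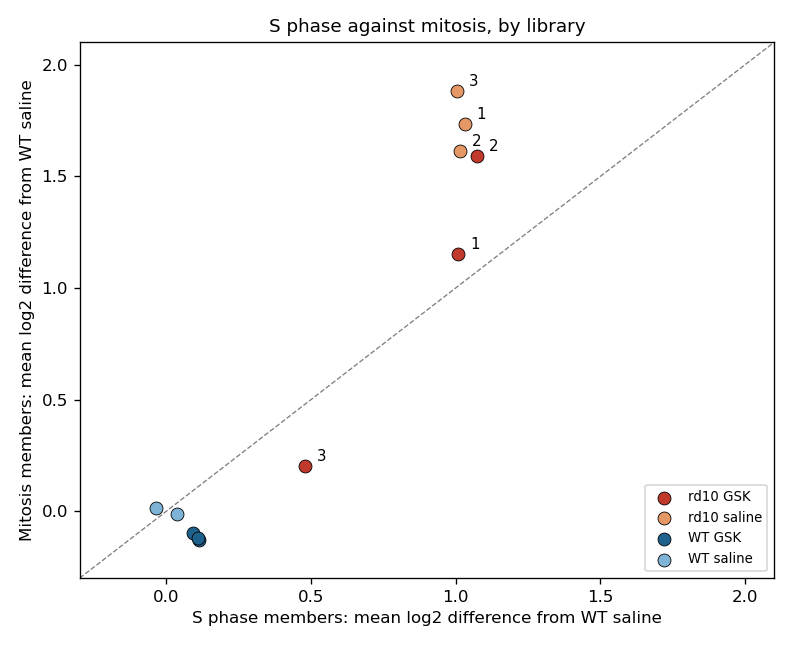
Each point is a library, numbered by replicate in the rd10 groups. The axes are the mean log2 difference from WT saline over the 20 S phase members and over the 23 mitosis members, and the dashed line marks equal values. The rd10 saline libraries lie above the line at mitosis levels of 1.61 to 1.88, rd10 GSK replicate 3 lies at 0.20, and the WT libraries lie near 0.

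Replicate 3 of rd10 GSK, the library with the muscle signal, had the most members near the WT levels, and the part of that signal was not tested. Of the 17 mitosis members that rose in rd10 saline, a set chosen by its level there, 10 were within or below the range of the WT libraries in that retina, against 2 in replicate 1 and 0 in replicate 2. Over all 23 mitosis members, 18 were below the rd10 saline range in replicate 3, 16 in replicate 1 and 11 in replicate 2. The share of all genes in these positions in each library was not counted, so neither set of counts can be held against a background. Markers of other cell types also differed between the groups. Beside the counts that follow, 21.5% of all genes rose in rd10 saline, and 15.2% fell under GSK in rd10. Of 12 microglia genes all 12 rose in rd10 saline, with none at 0 throughout, and 11 of 12 fell under GSK in rd10. Their sum was 330, 235 and 158 CPM in rd10 GSK replicates 1, 2 and 3 and 538 to 640 CPM in rd10 saline, against 93.8 to 99.5 CPM in WT GSK and 92.2 to 94.3 CPM in WT saline. Of 9 Müller glia genes 7 rose in rd10 saline and 7 fell under GSK in rd10, with sums of 4672 to 6213 CPM in rd10 GSK and 8268 to 9376 CPM in rd10 saline, against 6634 to 6773 CPM in WT GSK and 5973 to 6121 CPM in WT saline. The microglia sum was highest in rd10 GSK replicate 1, while the mitosis level was highest in replicate 2. Of 5 monocyte and neutrophil genes 3 were tested and 2 rose in rd10 saline, and 0 were called under GSK in rd10. Their sum was 17.5, 1.52 and 0.555 CPM in rd10 GSK replicates 1, 2 and 3 and 5.68 to 13.8 CPM in rd10 saline, against 0.321 to 1.43 CPM in WT GSK and 0.239 to 0.351 CPM in WT saline. Of 8 T and NK cell genes 3 were tested, 2 rose in rd10 saline and 1 fell under GSK in rd10, with sums of 2.09 to 2.72 CPM in rd10 GSK and 3.1 to 3.69 CPM in rd10 saline, against 2.2 to 2.55 CPM in WT GSK and 1.01 to 1.1 CPM in WT saline. Of 4 astrocyte genes 2 rose in rd10 saline and 2 fell under GSK in rd10, with sums of 169 to 388 CPM in rd10 GSK and 420 to 538 CPM in rd10 saline, against 57.8 to 61.3 CPM in WT GSK and 75.2 to 81.3 CPM in WT saline. Of 10 endothelium genes 2 rose and 1 fell in rd10 saline, and 2 fell under GSK in rd10. Sums were 512 to 583 CPM in rd10 GSK and 767 to 879 CPM in rd10 saline. WT GSK had 439 to 510 and WT saline 471 to 491 CPM. Of 12 retinal progenitor genes 9 were tested, and 4 rose and 1 fell in rd10 saline. Sums were 969 to 1099 CPM in rd10 GSK and 1254 to 1318 CPM in rd10 saline. WT GSK had 959 to 984 and WT saline 902 to 927 CPM. No gene of these lists was at 0 in all libraries, and the part of these cell types in the module's levels was not tested.

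Against wild-type retinas under the same drug, the rd10 GSK retinas still had 24 members higher and 0 lower, 12 in each list, where 15.4% of all genes rose, 10.9% fell and 26.2% were called in either direction. Of the members that passed the filter on WT libraries alone, 9 of 16 S phase and 6 of 14 mitosis members rose, and the other 9 calls were of members that entered only through rd10 libraries. Mki67 was 5.81 ± 1.03 (adjusted p = 0.00509) above WT GSK, and Bub1 3.39 ± 0.70 (adjusted p = 0.00589). Cdt1 was 1.38 ± 0.15 (adjusted p = 0.000175) above, Mcm4 0.81 ± 0.09 (adjusted p = 0.00028) and Mcm2 0.86 ± 0.11 (adjusted p = 0.000499). Mitosis members with no call included Nusap1 at 0.27 ± 0.25 (adjusted p = 0.463), Cdc20 at 0.65 ± 0.38 (adjusted p = 0.234), Ccnb1 at 1.25 ± 0.61 (adjusted p = 0.15), Kif23 at 1.41 ± 0.52 (adjusted p = 0.0662) and Ube2c at 1.81 ± 0.67 (adjusted p = 0.0652). Aurka was called here, at 0.51 ± 0.17 (adjusted p = 0.0385), and lost the call in 13 of 19 alternatives. Under inner retina scaling 37.4% of all genes rose, and with the compared groups alone 11.8% did. Without both lens-bearing libraries the count was 12 members, 6 in each list, and in a fit of the compared groups alone also 12, where 6 of the 24 were under the filter and 6 lost the call, while inner retina scaling gave 31.

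Against WT saline, rd10 GSK retinas had 18 members higher and 0 lower, 11 of S phase and 7 of mitosis, where 14.1% of all genes rose and 10.3% fell. Cdt1 had the smallest adjusted p, with 1.88 ± 0.17 (adjusted p = 0.000104). Mcm4 followed at 0.99 ± 0.11 (adjusted p = 0.000244) and Mcm2 at 0.75 ± 0.13 (adjusted p = 0.00222). The mitosis members called were Mki67, Top2a, Cdk1, Ccnb2, Birc5, Aurkb and Kif23, with changes of 1.57 to 4.82. All of these but Ccnb2 entered only through rd10 libraries, and of members that passed on WT libraries alone 8 of 16 S phase and 1 of 14 mitosis members rose. Prc1 at 1.04 ± 0.36 (adjusted p = 0.0549), Kif20a at 1.30 ± 0.44 (adjusted p = 0.0515) and Bub1 at 1.93 ± 0.68 (adjusted p = 0.0581) were just outside the threshold. Most of these calls, and all those of mitosis members, were lost in the settings that leave 1 WT saline library. Calls over all genes became fewer there too, so the loss was not particular to the module. Over all alternatives the log2 change of Cdt1 ran from 1.85 to 2.15, that of Mcm4 from 0.92 to 1.26 and that of Mcm2 from 0.60 to 1.02. The count was 27 without rd10 GSK replicate 3, where 18% of all genes rose. Under inner retina scaling it was 31, where 40.7% of all genes rose.

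In wild-type retinas GSK was followed by no call among the 43 members, where 0.444% of all genes rose and 0.0877% fell. DESeq2 also called 0, and at an unadjusted p under 0.05 edgeR had 1, Cdt1. Cdt1 was at 3.48, 2.82 and 2.48 CPM in WT GSK, against 2.01 and 2.11 CPM in WT saline. All WT GSK libraries were above both WT saline ones, and the change was 0.51 ± 0.18 (adjusted p = 0.353). Mcm4, at 16.7, 16.4 and 17.1 CPM in WT GSK, against 14.8 and 14.8 CPM in WT saline, was also higher in every library, with a change of 0.17 ± 0.11 (adjusted p = 0.751). Mki67 stayed close to silence, at 0.0404, 0.0376 and 0.0917 CPM in WT GSK, against 0.0957 and 0.132 CPM in WT saline, and so did Top2a, at 0.121, 0 and 0.0917 CPM in WT GSK, against 0.191 and 0.307 CPM in WT saline. The medians were 0.04 for S phase and -0.16 for mitosis, with 2 WT saline animals behind every one of these values.

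Whether GSK acted differently in the rd10 and WT retinas was tested by the interaction, which called 0 members, where 7.49% of all genes were higher and 4.98% lower. DESeq2 called 0 of the 28 members to which it gave an adjusted p, with none given for the other 15, and at an unadjusted p under 0.05 edgeR had 7: Mcm2, Mcm4, Pcna, Tyms, Cdk1, Birc5 and Nusap1. Mcm4 had the smallest adjusted p, with a difference of 0.44 ± 0.14 (adjusted p = 0.0613), and Nusap1 followed at -1.14 ± 0.37 (adjusted p = 0.0672). For Mki67 the difference was -0.51 (adjusted p = 0.928), beside WT levels near 0, where the approximate error of 2.56 is not dependable. A different response of the module in the 2 genotypes is therefore not shown.

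Other genes of the cell cycle, from lists of the same pathway, were read beside the members. Of 57 further mitosis genes 25 rose and 4 fell in rd10 saline against WT saline, with a median of 0.62, where 21.5% of all genes rose and 19.0% fell. Cdca5, the sororin that holds sister chromatids, rose by 4.24 ± 0.59 (adjusted p = 0.000194), and Ncaph, a condensin subunit, by 1.73 ± 0.28 (adjusted p = 0.000512). Smc4, another condensin subunit, moved the other way at -0.80 ± 0.08 (adjusted p = 1.33e-05), as did Kif18a, a kinesin that aligns chromosomes, at -0.95 ± 0.17 (adjusted p = 0.00102). Of 39 further S phase genes 7 rose and 9 fell, with a median of 0.13. Among them Asf1b and Chaf1b, histone chaperones that work behind the fork, rose by 0.71 ± 0.17 (adjusted p = 0.00714) and 1.76 ± 0.48 (adjusted p = 0.0118). Pold3, a subunit of DNA polymerase delta, and Rpa2, a subunit of the single-strand binding complex, fell, at -0.28 ± 0.05 (adjusted p = 0.00149) and -0.49 ± 0.10 (adjusted p = 0.00177). The counts of this list were close to those shares of all genes.

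**Figure D5:**
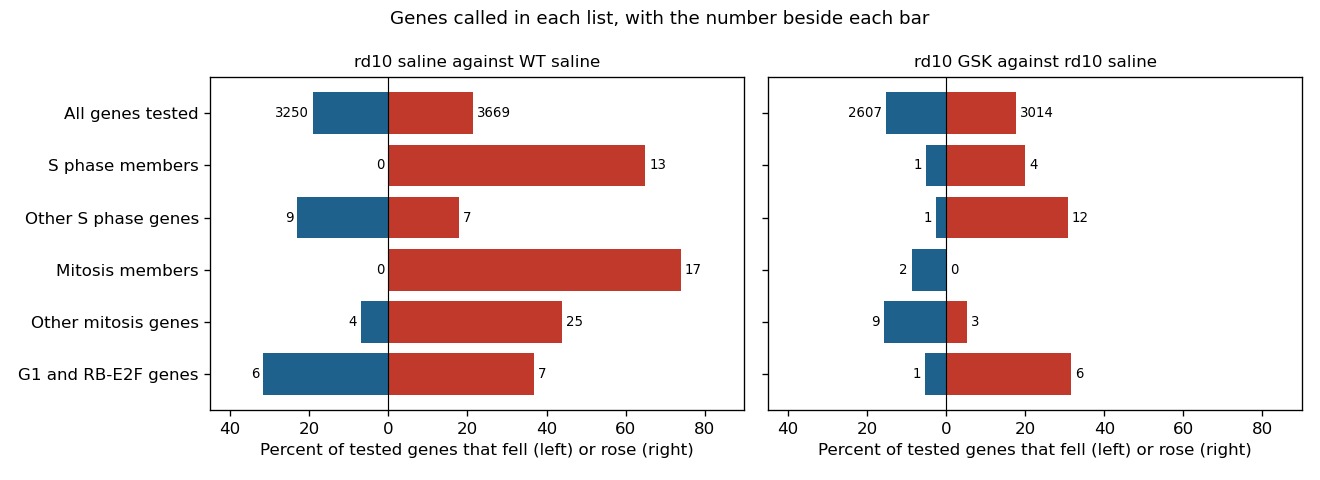
Bars give the percentage of tested genes that fell, to the left, or rose, to the right, with the number of genes beside each bar. In rd10 saline against WT saline the member lists reach 13 and 17 genes that rose with 0 that fell, while the other S phase genes have 7 and 9. In rd10 GSK against rd10 saline the other S phase genes have 12 that rose and 1 that fell, and the other mitosis genes 3 and 9.

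The same lists were read under GSK in rd10, where 17.6% of all genes rose and 15.2% fell. Of the other S phase genes 12 rose and 1 fell, with a median of 0.15, and of the other mitosis genes 3 rose and 9 fell, with a median of -0.31, so the share of other mitosis genes that fell was near that of all genes. Of 19 genes of the first gap phase and the retinoblastoma and E2F pathway, 7 rose and 6 fell in rd10 saline, and 6 rose and 1 fell under GSK in rd10.

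The D cyclins, which receive growth signals, were higher in every rd10 saline library. Ccnd2 was at 13.9, 23.9 and 23.4 CPM in rd10 saline, against 4.98 and 5.05 CPM in WT saline, and rose by 2.02 ± 0.43 (adjusted p = 0.0054). Ccnd1, at 65.4, 69.2 and 55.2 CPM in rd10 saline, against 27.9 and 27.3 CPM in WT saline, and Ccnd3, at 80.9, 91.7 and 81.3 CPM in rd10 saline, against 56.6 and 52 CPM in WT saline, were not called, at 1.20 ± 0.44 (adjusted p = 0.0638) and 0.64 ± 0.23 (adjusted p = 0.0507). Under GSK the rd10 libraries were spread, with Ccnd1 at 143, 62.1 and 46.1 CPM in rd10 GSK, against 63.3 ± 7.23 CPM in rd10 saline. Against WT saline all 3 D cyclins rose in rd10 GSK, Ccnd2 by 2.5 ± 0.43 (adjusted p = 0.00497), Ccnd1 by 1.61 ± 0.45 (adjusted p = 0.036) and Ccnd3 by 0.83 ± 0.23 (adjusted p = 0.0304).

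Inhibitors of cyclin-dependent kinases hold cells out of the cycle. Of 5 tested, 1 rose and 1 fell in rd10 saline against WT saline, and 3 rose under GSK in rd10. Cdkn1a, the p53 target, was at 21.1, 20.9 and 24.2 CPM in rd10 GSK, against 12.2, 9.05 and 10.8 CPM in rd10 saline, with no overlap, and rose by 1.05 ± 0.11 (adjusted p = 6e-05). It had already risen in rd10 saline against WT saline, by 1.04 ± 0.14 (adjusted p = 0.000133). Cdkn2c, an inhibitor of the cyclin D kinases, was at 16.4, 20.9 and 15.98 CPM in rd10 GSK, against 8.82, 7.94 and 7.99 CPM in rd10 saline, and rose by 1.11 ± 0.13 (adjusted p = 9.71e-05). In rd10 saline against WT saline it had fallen, at -0.47 ± 0.14 (adjusted p = 0.0222). Cdkn1c, an inhibitor that marks cells leaving the cycle in development, was at 20.6, 46.9 and 38.7 CPM in rd10 GSK, against 16.8, 17.5 and 16.2 CPM in rd10 saline, and rose by 1.07 ± 0.24 (adjusted p = 0.00896). Cdkn1b, an inhibitor of the cyclin E and A kinases, had group means between 149 and 155 CPM. Cdkn2b, at 5.05, 1.61 and 1.37 CPM in rd10 GSK, against 1.47 ± 0.643 CPM in rd10 saline, was not called, and Cdkn2a was under the filter.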

How the data were processed

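Polyadenylated RNA of 11 retinas was sequenced from stranded libraries, per the labels' protocols. The authors deposited 1 table of raw read counts per gene. Reads were aligned with HISAT2 2.1.0, counted with HTSeq and analysed with edgeR, per the submitters' processing notes, which name the builds NCBIM37 and mm9. Neither the strand setting nor the annotation is given in the sources used here, and counts of genes with an antisense neighbour are therefore uncertain. Names came from GENCODE by Ensembl identifier, for 32919 of 37991 rows.

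The filter was filterByExpr with a minimum count of 10 and a minimum total of 15. Counts were then scaled by TMM and fitted with 1 coefficient per group over all 11 libraries in edgeR 4.0.16 (robust quasi-likelihood, R 4.3.3). The p-values were adjusted by Benjamini-Hochberg over 17099 genes, with calls at 0.05. The fit was checked on simulated data of 17099 genes, with changes placed only in genes above a minimum expected count. For rd10 saline against WT saline it recovered 75% of 2-fold and 44% of 1.5-fold changes with 9.85% false calls, for rd10 GSK against rd10 saline 77% and 48% with 2.34%, for WT GSK against WT saline 77% and 48% with 11.97%, and for the interaction 58% and 23% with 7.95%, so false calls exceeded the nominal 5% in 3 of these 4. The recovery rates do not cover genes below that minimum expected count. Depth ran from 19657030 to 28053367 counts, and intervals and floors cover counting error only. Alternatives were other scalings, filters and sample sets, DESeq2 1.42.0 and a replicate block.

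The members and lists were chosen with earlier results of these data known. Values per library were given for the 6 S phase and 8 mitosis members of highest mean CPM, for members whose call differed from most of their list, and for E2f1 and Foxm1, and were then added for the rest. Outside the module, D cyclins, kinase inhibitors and the 2 genes of smallest p per direction in the other S phase and other mitosis lists were named. Of the retinoblastoma and E2F list E2f2 was also named, and the 6 genes that fell in rd10 saline were not. Promoter sequences are RefSeq's, build GRCm38.p6. Cdkn2d was not analysed here.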

Additional observations from a re-analysis of the deposited data

Results flagged for a closer look

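For Pcna the GSK libraries lay apart from the saline libraries of their genotype, on opposite sides in the 2 genotypes. The rd10 GSK libraries were at 56.5, 54.9 and 55.1 CPM, above the rd10 saline libraries at 49.5, 52.2 and 45.5 CPM, and the WT GSK libraries were at 48.8, 46.1 and 50.01 CPM, below the WT saline libraries at 52.1 and 50.4 CPM. The difference between the genotypes was tested by the interaction and was 0.26 (log2), with an adjusted p of 0.0711 in edgeR, so it was not called.

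Birc5 showed the same pattern turned round. The rd10 GSK libraries, at 0.617, 1.25 and 0.342 CPM, were below rd10 saline, at 1.4, 1.8 and 1.79 CPM, and the WT GSK libraries, at 0.283, 0.263 and 0.229 CPM, were above WT saline, at 0.191 and 0.132 CPM. The interaction was -1.86 (log2), with an adjusted p of 0.129 in edgeR, and was not called. The WT levels of Birc5 rest on few counts. Both genes were flagged from the whole module for this difference between groups. Over all genes tested, the libraries of rd10 GSK lay wholly above those of rd10 saline for 22.5% and wholly below for 20.2%. For WT GSK against WT saline these shares were 17.2% and 17.3%. The share of all genes separated in opposite directions in rd10 and WT was not counted. The pattern therefore cannot be held against a background.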

How the results depend on the processing

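The labels do not say that replicate numbers pair the samples. Correlations of same-numbered libraries, on deviations from the group mean, ran from -0.19 to 0.39, and libraries did not all correlate best with their own number. Such deviations oppose each other within a group, and the 2 WT saline libraries are mirror images. These correlations therefore cannot tell whether the numbers mark a pairing. With the replicate block 29 members rose in rd10 saline against WT saline (median 1.31), where 20.4% of all genes did. In rd10 GSK against rd10 saline 3 rose and 5 fell, 2 of the 5 from S phase. There 16.9% of all genes rose and 14.7% fell. For rd10 GSK the block gave 21 against WT GSK and 15 against WT saline, where 13.9% and 12.9% of all genes rose. It gave 0 in WT, where 0.193% of all genes rose, and 0 in the interaction, where 6.84% were higher.

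Rd10 saline against WT saline kept 25 to 30 rising members under every alternative other than leaving out 1 library, where the count was 19 to 30 with 0 or 1 falling. With 1 library left out, 8 to 13 S phase and 11 to 17 mitosis members rose, and 0 or 1 mitosis member fell. Medians ran from 1.19 to 1.32 for all members, 0.68 to 0.94 for S phase and 1.62 to 2.13 for mitosis. The median was 1.21 under inner retina scaling and 1.22 with a filter blind to groups, and without the lens-bearing libraries it was 0.67 for S phase and 2.12 for mitosis.

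In rd10 GSK against rd10 saline, inner retina scaling gave 10 rising, 8 of S phase and 2 of mitosis. It gave 1 falling, 0 of S phase and 1 of mitosis, with an S phase median of 0.23. Under that scaling 52.1% of all genes rose and 2.35% fell, with a median of 0.34. Without the lens-bearing libraries 2 rose, both of S phase, and 10 fell, 2 of S phase and 8 of mitosis. With the compared groups alone 2 rose, both of S phase, and 2 fell, 1 of them of mitosis. There 11.8% of all genes rose and 9.94% fell. Leaving out 1 library gave 2 to 4 rising, all of S phase, and 2 to 13 falling, with 0 to 3 of S phase and 1 to 10 of mitosis.

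Against WT GSK the count of 24 became 12 without the lens-bearing libraries, 6 in each list, and 12 with the compared groups alone, 4 of them of mitosis, where 9 members, 6 of the 24 among them, were under the filter. It was 14 to 30 when 1 library was left out, with 6 to 17 of mitosis. Against WT saline the count of 18 became 31 under inner retina scaling, 15 of them of mitosis, 3 without the lens-bearing libraries, all of S phase with 0 of mitosis, and 4 with the compared groups alone, likewise with 0 of mitosis. Leaving out 1 library gave 4 to 27, with 4 to 12 of S phase and 0 to 15 of mitosis. In WT GSK against WT saline medians were 0.0673 for all members and 0.10 for S phase under inner retina scaling, and with 1 library left out -0.0523 to 0.0338 for all and -0.21 to 0.0032 for mitosis. The interaction had 3 rising under inner retina scaling, all of S phase, with an S phase median of 0.14. Under that scaling 28.6% of all genes were higher in the interaction and 1.24% lower, with a median of 0.28. With 1 library left out 0 to 2 members rose and 0 to 1 fell. Of S phase 0 to 2 rose and 0 to 1 fell, and of mitosis 0 to 1 fell.

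Among single members, Rrm1 reversed under inner retina scaling, to 0.33 in rd10 GSK against rd10 saline and 0.24 against WT saline. Of the other values 4529 stayed on their side of the threshold, 245 lost a call and 83 gained one. S phase minus mitosis in rd10 saline was -0.458, -0.312 and -0.868 with pseudocounts of 0.5 and 1 CPM and with members of at least 50 mean counts, and in WT GSK 0.118, 0.0881 and 0.320. With only members that pass the filter on WT libraries, an alternative chosen after seeing the data, it was -0.328 in rd10 saline and 0.166 in WT GSK. The cause of these changes was not tested. Genes under 1 CPM in WT, with few counts per library, had the widest errors, and settings that leave 1 WT saline library assume that it varies like the other groups.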

Other observations

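E2f2, a transcription factor of the family that drives S phase genes, was the cell cycle gene outside the module with the smallest p among those of its list that rose in rd10 saline. It was at 3.66, 4.66 and 4.49 CPM in rd10 GSK and 2.84, 2.68 and 2.56 CPM in rd10 saline, against 3.64, 3.83 and 4.31 CPM in WT GSK and 0.957 and 0.747 CPM in WT saline. The WT saline libraries were the lowest, and the WT GSK and rd10 GSK libraries overlapped. E2f2 rose in WT GSK against WT saline by 2.20 ± 0.20 (adjusted p = 0.000472 in edgeR), in rd10 saline against WT saline by 1.66 ± 0.21 (adjusted p = 9.3e-05) and in rd10 GSK against rd10 saline by 0.66 ± 0.15 (adjusted p = 0.00645). The interaction was -1.54 ± 0.25 (adjusted p = 0.00313). E2f1, the member of the same family, was not called in WT GSK against WT saline, at 0.12 ± 0.33 (adjusted p = 0.979).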
